A study of Homo sapiens with 18 samples.

Results

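Genes of cholesterol synthesis, uptake and efflux were followed through 18 bulk RNA-Seq libraries of 3 acute myeloid leukemia (AML) cell lines treated with a Menin inhibitor, a BET inhibitor or both. The 31 genes were chosen by name, as genes of the sterol pathway and targets of the SREBP and LXR transcription factors, and the rule set no threshold on a measured value. The choice was made with earlier results of these data known, so it was not blind to them. All 31 were found among the 58037 gene rows of the count table. They comprised 18 enzymes of sterol synthesis, 5 genes of sterol sensing, the sterol carrier STARD4 with the fatty acid enzymes FASN and SCD, and 5 genes of LXR signaling, efflux and receptor turnover.

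MOLM13 cells, which carry an MLL-AF9 fusion, were left as controls (n = 2) or treated with SNDX-50469 at 500 nM (n = 2; named VTP50469 in the sample labels), which blocks the binding of Menin to MLL, with 500 nM of the BET inhibitor OTX015 (n = 2), or with 500 nM of each (n = 2). MV4-11 cells, which carry an MLL rearrangement, were controls (n = 2) or received 1000 nM SNDX-50469 (n = 2), and OCI-AML3 cells, which carry mutant NPM1, were controls (n = 3) or received 500 nM (n = 3). Treatment lasted 16 h in medium with 20% FBS, which was RPMI for MOLM13 and OCI-AML3 and IMDM for MV4-11, so the line, the dose and the medium of MV4-11 cannot be told apart in comparisons between lines. Each line is a single established culture, serum lipoproteins were present throughout, and the labels do not say what the controls received.

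Cholesterol is built from acetyl-CoA through mevalonate, isoprenoid pyrophosphates, squalene and lanosterol, and the enzymes of this route are transcribed under SREBP2. When the membrane of the endoplasmic reticulum holds enough sterol, INSIG proteins retain the escort protein SCAP there with the SREBP precursors, and when sterol runs low SCAP carries SREBP to the Golgi for cleavage. LXR receptors work in the other direction: they sense oxysterols and raise the exporters ABCA1 and ABCG1 and MYLIP, a ubiquitin ligase that marks lipoprotein receptors for degradation.

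Total counts were 19320216 to 23684811 for the MOLM13 libraries, 20730486 to 30090830 for MV4-11 and 49881047 to 59711884 for OCI-AML3. One MV4-11 control library, replicate 1, stood apart: mitochondrial transcripts took 10.3% of its counts against 5.6% in the other control and 6.23% and 6.68% in the treated libraries. As checks of the treatment labels, MEIS1, a Menin-MLL target, was at -2.60 ± 0.09 (log2 fold change ± SE) after SNDX-50469 in MOLM13, and HEXIM1, a gene known to respond to BET inhibitors, was at 2.11 ± 0.05 after OTX015. With both agents HEXIM1 was at 2.58 ± 0.05 and MEIS1 at -0.50 ± 0.07, a smaller fall than with SNDX-50469 alone. After SNDX-50469, MEIS1 was at -1.86 ± 0.17 in MV4-11 and -0.49 ± 0.04 in OCI-AML3. HEXIM1 also rose in these lines, by 0.77 ± 0.15 and 0.33 ± 0.03, so it was not particular to OTX015. Markers of myeloid cells (6 genes) summed to between 520 and 3000 CPM in each library (CPM, reads of a gene scaled to a fixed library size), while 4 erythroid markers summed to at most 0.12 CPM, 4 T cell markers to at most 6.8 CPM, 4 B cell markers to at most 5.75 CPM and epithelial and stromal markers to at most 22.8 CPM. In bulk RNA, fewer cells of a type and less RNA per cell cannot be told apart.

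Promoter windows of 300 bases, 250 before and 50 from the RefSeq start site on (GRCh38.p14), were found for 26 of the 31 genes. They were searched on both strands for the sterol regulatory element TCACNCCAC, the NF-Y box CCAAT and the E-box CACGTG. The NF-Y box lay in a window of 19 of the 26 genes, and 39.7% of all 27305 genes with a window held one. The sterol element lay in 1 of the 26 (SREBF2) against 1.39% of all genes, and the E-box lay in 5 (ABCA1, INSIG1, LSS, SC5D, SCAP) against 8.77%. Only these exact patterns were searched, so a gene with no match may still hold a variant site or one outside the window. ACAT2, FDFT1, SQLE, FASN and ABCG1 had no window. Shown here are 2 genes that rose with OTX015 (INSIG1, TM7SF2), 2 that fell (FDPS, EBP), the gene that matched the sterol pattern (SREBF2) and the gene that rose with SNDX-50469 in MOLM13 (ABCA1), with matches to the motifs in capitals.
INSIG1 (chr7:155297628-155297927, plus strand): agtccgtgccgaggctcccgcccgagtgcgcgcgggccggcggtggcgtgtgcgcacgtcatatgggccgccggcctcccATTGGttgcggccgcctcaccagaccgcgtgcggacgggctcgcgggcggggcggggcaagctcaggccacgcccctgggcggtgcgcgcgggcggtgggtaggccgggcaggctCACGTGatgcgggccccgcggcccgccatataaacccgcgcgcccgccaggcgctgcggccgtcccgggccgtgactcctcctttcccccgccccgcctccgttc
TM7SF2 (chr11:65111622-65111921, plus strand): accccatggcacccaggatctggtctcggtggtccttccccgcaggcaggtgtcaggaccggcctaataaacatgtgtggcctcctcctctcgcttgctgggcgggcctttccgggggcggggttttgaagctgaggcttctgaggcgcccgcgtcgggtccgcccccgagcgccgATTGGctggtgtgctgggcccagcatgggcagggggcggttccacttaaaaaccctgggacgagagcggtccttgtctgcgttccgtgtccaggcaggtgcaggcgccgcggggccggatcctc
FDPS (chr1:155308616-155308915, plus strand): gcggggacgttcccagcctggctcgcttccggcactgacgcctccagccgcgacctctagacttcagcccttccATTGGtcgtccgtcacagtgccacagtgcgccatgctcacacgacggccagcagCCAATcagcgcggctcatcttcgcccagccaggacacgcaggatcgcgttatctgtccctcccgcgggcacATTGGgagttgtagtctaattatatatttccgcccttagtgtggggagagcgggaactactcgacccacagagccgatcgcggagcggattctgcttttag
EBP (chrX:48521558-48521857, plus strand): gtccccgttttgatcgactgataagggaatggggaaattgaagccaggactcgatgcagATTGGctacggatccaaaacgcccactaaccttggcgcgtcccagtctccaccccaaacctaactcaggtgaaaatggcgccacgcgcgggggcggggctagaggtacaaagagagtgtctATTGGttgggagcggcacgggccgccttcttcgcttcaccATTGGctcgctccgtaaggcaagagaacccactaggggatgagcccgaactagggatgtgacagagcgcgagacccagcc
SREBF2 (chr22:41832855-41833154, plus strand): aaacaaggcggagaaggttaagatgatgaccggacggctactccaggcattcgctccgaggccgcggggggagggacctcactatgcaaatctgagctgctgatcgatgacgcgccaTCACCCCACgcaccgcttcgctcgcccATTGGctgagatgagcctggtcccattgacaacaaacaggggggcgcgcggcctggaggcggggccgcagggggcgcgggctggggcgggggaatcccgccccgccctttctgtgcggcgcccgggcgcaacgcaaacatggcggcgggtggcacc
ABCA1 (chr9:104928106-104928405, minus strand): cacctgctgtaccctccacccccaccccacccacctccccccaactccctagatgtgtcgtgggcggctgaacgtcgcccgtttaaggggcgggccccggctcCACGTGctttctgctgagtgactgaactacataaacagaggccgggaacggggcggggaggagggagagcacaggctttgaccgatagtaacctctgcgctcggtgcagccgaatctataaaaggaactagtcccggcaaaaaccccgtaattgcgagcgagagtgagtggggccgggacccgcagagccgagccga
INSIG1 and TM7SF2, which rose, and FDPS and EBP, which fell, are among the 19 of 26 genes that held an NF-Y box. Whether the box goes with the direction of response was not tested. The marked stretches are matches of letters in short windows and were not tested for binding.

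In MOLM13, SNDX-50469 alone moved 1 of the 30 tested sterol genes past the limits for a call, which were a log2 change of 0.32 or more in size and an adjusted p under 0.05, and that gene was the exporter ABCA1. ABCG1 was not tested, having at most 1 read in any MOLM13 library. Over all 14360 genes tested, 8.06% were called higher and 5.24% lower. ABCA1, which loads cholesterol onto apolipoprotein A-I, was at 1.06 and 1.39 CPM in the controls and at 3.92 and 5.33 CPM after SNDX-50469, so the groups did not overlap. Its log2 fold change was 1.91 ± 0.23 (adjusted p = 1.11e-09, edgeR's quasi-likelihood test). None of the 30 was called lower, although 10 had a negative change at an unadjusted p below 0.05 and 5 a positive one, and DESeq2 called 1 lower. No share of all genes at an unadjusted p is given here, so the 10 and 5 have no background to be read against. The median log2 fold change of the members was -0.06, against 0.01 over all genes tested. Summed myeloid markers were 1440 and 1480 CPM after SNDX-50469 against 1180 in the controls, and the part of that shift in the ABCA1 result was not tested.

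Among the synthesis enzymes, 13 of 18 estimates after SNDX-50469 were negative and none was called. That count takes in estimates as small as -0.05 (SQLE and LSS), and the median over all genes tested was 0.01. ACAT2, which condenses acetyl-CoA, was at 61.1 and 58.5 CPM in controls and at 49.3 and 46.8 CPM in treated libraries. Its estimate of -0.31 ± 0.06 (adjusted p = 2.58e-05) lay just under the fold limit, and it was -0.35 without control replicate 2 and -0.36 without SNDX-50469 replicate 1, past the limit. ACAT2 shares 17.2% of its exon bases with TCP1 on the opposite strand, which had 312572 reads against 28314 over all libraries, and no source says whether the counting used strand. IDI1, which isomerizes isopentenyl pyrophosphate, was at -0.23 ± 0.07, FDPS, which makes farnesyl pyrophosphate, at -0.22 ± 0.06 and EBP, the sterol isomerase, at -0.19 ± 0.05, all with an adjusted p below the threshold and a change below the fold limit. DHCR7, the 7-dehydrocholesterol reductase, was at 0.18 ± 0.05 and FASN at 0.22 ± 0.04.

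With OTX015 alone in MOLM13, 9 of the 30 tested genes were called higher and 5 lower. All genes tested were called higher at 23.5% and lower at 24.7%, so the share of members called (9 and 5 of 30) lay in the range of the background. The 5 genes called lower were all synthesis enzymes, and the 9 called higher were 5 synthesis enzymes, both INSIG genes, STARD4 and NR1H3. The median log2 fold change of the members was 0.03.

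INSIG1, the sterol-regulated retention factor for SCAP, was the member with the largest rise after OTX015. It stood at 135 and 138 CPM in the controls and at 309 and 300 CPM with OTX015. The log2 fold change was 1.16 ± 0.04 (adjusted p = 4.83e-33), and its paralog INSIG2 was at 0.58 ± 0.14 (adjusted p = 0.000258). INSIG2 was low, at 6.11 and 6.47 CPM in controls and 10.6 and 8.18 CPM with OTX015. The transcription factor genes were not called: SREBF2 was at -0.31 ± 0.04 and SREBF1 at -0.19 ± 0.04, and SCAP, the escort, was at 0.02 ± 0.05.

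Among the synthesis enzymes that rose, IDI1 went from 42.1 and 43 CPM to 82.6 and 71.3 CPM with OTX015 (0.85 ± 0.06, adjusted p = 4.83e-19). SQLE, the squalene epoxidase, which catalyzes a control step of the later pathway, went from 165 and 174 CPM to 259 and 253 CPM (0.59 ± 0.04). For IDI1 and SQLE, both called, the 2 treated libraries lay above the 2 controls, and how many of all genes were so separated was not counted. TM7SF2, a sterol reductase acting after lanosterol, went from 6.64 and 7.41 to 12.6 and 11.9 CPM (0.80 ± 0.12), SC5D, the lathosterol desaturase, rose by 0.57 ± 0.12 and MVD, the mevalonate pyrophosphate decarboxylase, by 0.34 ± 0.06. SC5D was 18.4 CPM in one OTX015 library and 13 in the other, and without the higher one its estimate was 0.30 (adjusted p = 0.0455), under the fold limit. The MVD call was lost without control replicate 2 (0.27) and without OTX015 replicate 2 (0.32, just under the limit).

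The enzymes that fell with OTX015 lay on both sides of squalene. EBP fell from 91.8 and 87.3 CPM to 60.5 and 59 CPM (-0.58 ± 0.05, adjusted p = 8.49e-15). FDPS fell from 76.1 and 72.8 CPM to 52.7 and 51.7 CPM (-0.51 ± 0.06), and 18.6% of its exon bases overlap RUSC1-AS1, which had 3971 reads against 52471. PMVK, the phosphomevalonate kinase, was at -0.46 ± 0.06, ACAT2 at -0.44 ± 0.06 and FDFT1, the squalene synthase, at -0.36 ± 0.04 (538 and 541 CPM in controls, 430 and 411 CPM with OTX015). STARD4, which moves cholesterol between membranes, was at 0.45 ± 0.11 and NR1H3, the gene of LXR-alpha, at 0.55 ± 0.20 (adjusted p = 0.0136). NR1H3 was at 2.79 and 3.01 CPM in controls and at 3.92 and 4.58 CPM with OTX015, and its call was lost without control replicate 1 (adjusted p = 0.0798) or OTX015 replicate 2 (adjusted p = 0.114). HMGCS1, MVK, LSS, CYP51A1, MSMO1, NSDHL, HSD17B7, DHCR7, FASN, SCD, ABCA1, MYLIP and NR1H2 were not called, with estimates between -0.27 and 0.28. Summed myeloid markers were lower in these libraries, 520 and 534 CPM against 1180 in the controls, and the part of that shift in the sterol results was not tested.

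**Figure D1:**
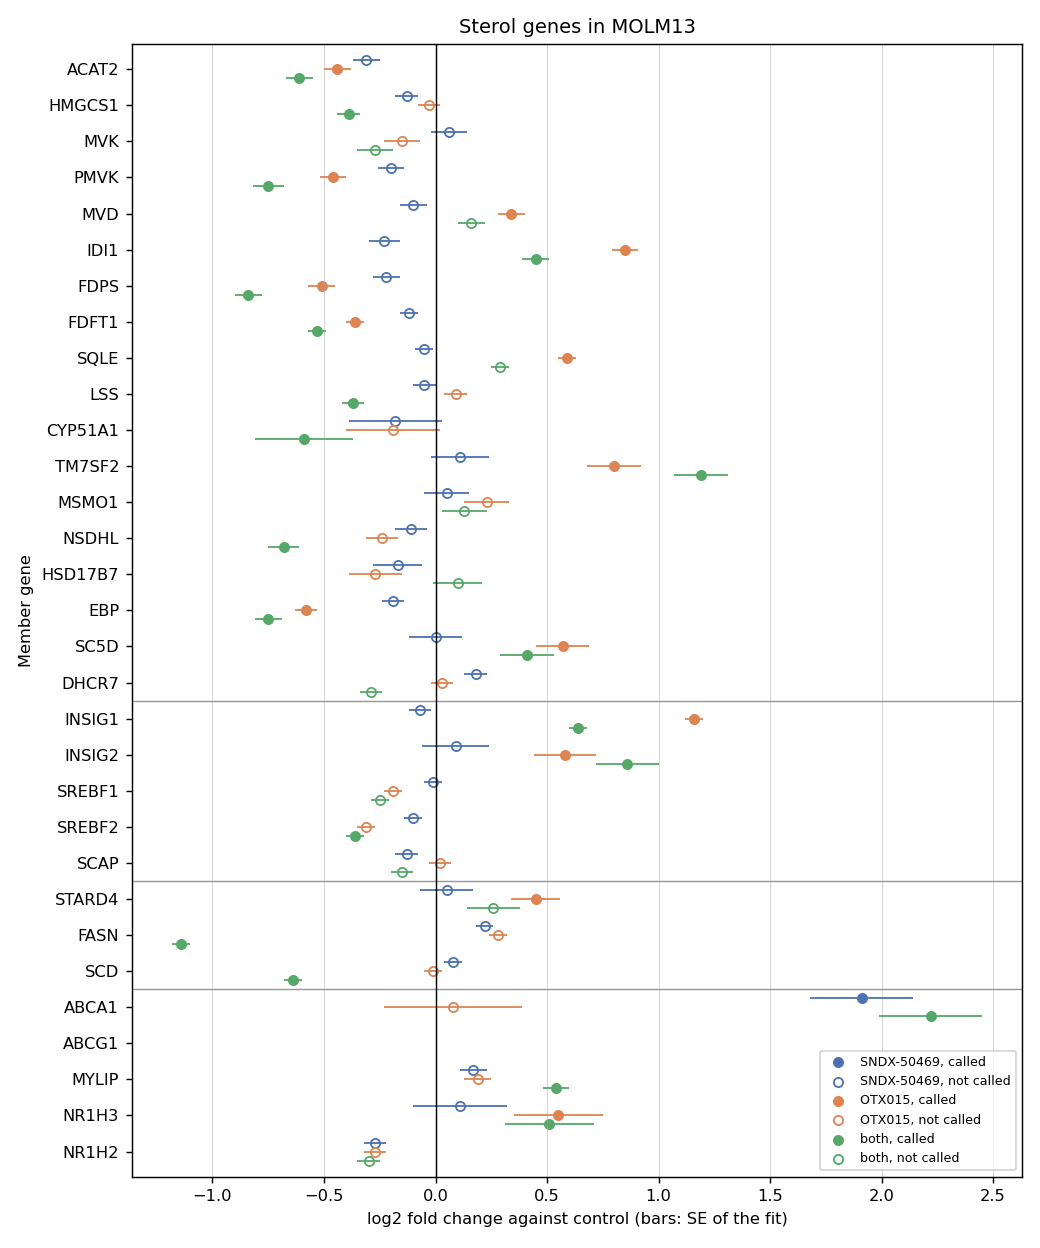
Log2 fold change of the 31 genes in MOLM13 (x axis) against control for SNDX-50469, OTX015 and both, with the SE of the fit as bars and filled points for called genes; lines divide the 4 roles. ABCG1 was not tested. FASN and SCD are called lower with both agents, at -1.14 and -0.64, and not with either alone, while ABCA1 lies at 1.91 with SNDX-50469 and 2.22 with both.

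With both agents together 12 genes were called lower and 8 higher, against 30.9% and 31.2% of all genes tested. These contrasts share the same 2 control libraries with the single-agent contrasts, and their values are set side by side without a test of overlap. FASN, the fatty acid synthase, was at 785 and 860 CPM in the controls, 955 and 961 with SNDX-50469, 955 and 1040 with OTX015 and 379 and 369 with both. It was thus lowest with both agents, by a margin wider than the range of the other 3 groups, and its log2 fold change against control was -1.14 ± 0.04 (adjusted p = 6.61e-35). SCD, the stearoyl-CoA desaturase, was at 764 and 808 CPM in controls, 840 and 821 with SNDX-50469, 780 and 780 with OTX015 and 505 and 507 with both (-0.64 ± 0.04).

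Of the 18 synthesis enzymes, 9 were called lower and 3 higher with both agents. FDPS was at -0.84 ± 0.06, PMVK at -0.75 ± 0.07, EBP at -0.75 ± 0.06, NSDHL, the sterol 3-dehydrogenase, at -0.68 ± 0.07 and ACAT2 at -0.61 ± 0.06. CYP51A1, the lanosterol demethylase, was at -0.59 ± 0.22 (adjusted p = 0.0153) from low levels of 3.03 and 3.82 CPM in controls and 1.92 and 2.62 with both, and its call was lost without control replicate 2 (-0.42) or replicate 1 of both agents (-0.39). FDFT1 was at -0.53 ± 0.04, HMGCS1, the HMG-CoA synthase, at -0.39 ± 0.05 and LSS, the lanosterol synthase, at -0.37 ± 0.05, or -0.31 without replicate 2 of both agents. Those that rose were TM7SF2 (1.19 ± 0.12, from 6.64 and 7.41 to 16.2 and 15.9 CPM), IDI1 (0.45 ± 0.06) and SC5D (0.41 ± 0.12).

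Outside the enzymes, INSIG1 was at 205 and 221 CPM with both agents, between the control and the OTX015 levels (0.64 ± 0.04), INSIG2 was at 0.86 ± 0.14 and SREBF2 was called lower at -0.36 ± 0.04. ABCA1 was at 6.22 and 5.29 CPM, giving 2.22 ± 0.23, and MYLIP rose from 43.8 and 47.1 to 67.8 and 64.4 CPM (0.54 ± 0.06). NR1H3 was at 0.51 ± 0.20 (adjusted p = 0.0208), and its call was lost without control replicate 1 (adjusted p = 0.101) or replicate 2 of both agents (adjusted p = 0.0819). NR1H2, the gene of LXR-beta, was at -0.27 ± 0.05, -0.27 ± 0.05 and -0.30 ± 0.05 with SNDX-50469, OTX015 and both, each under the fold limit. Summed myeloid markers were 828 and 856 CPM with both agents, against 1180 in the controls, and the 6 markers did not move together. MPO (-4.04 ± 0.08), LYZ (-0.80 ± 0.05), SPI1 (-0.59 ± 0.04) and CD33 (-0.56 ± 0.05) were called lower. PTPRC (0.76 ± 0.05) was called higher and CSF3R was not called. The part of these shifts in the sterol results was not tested.

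**Figure D2:**
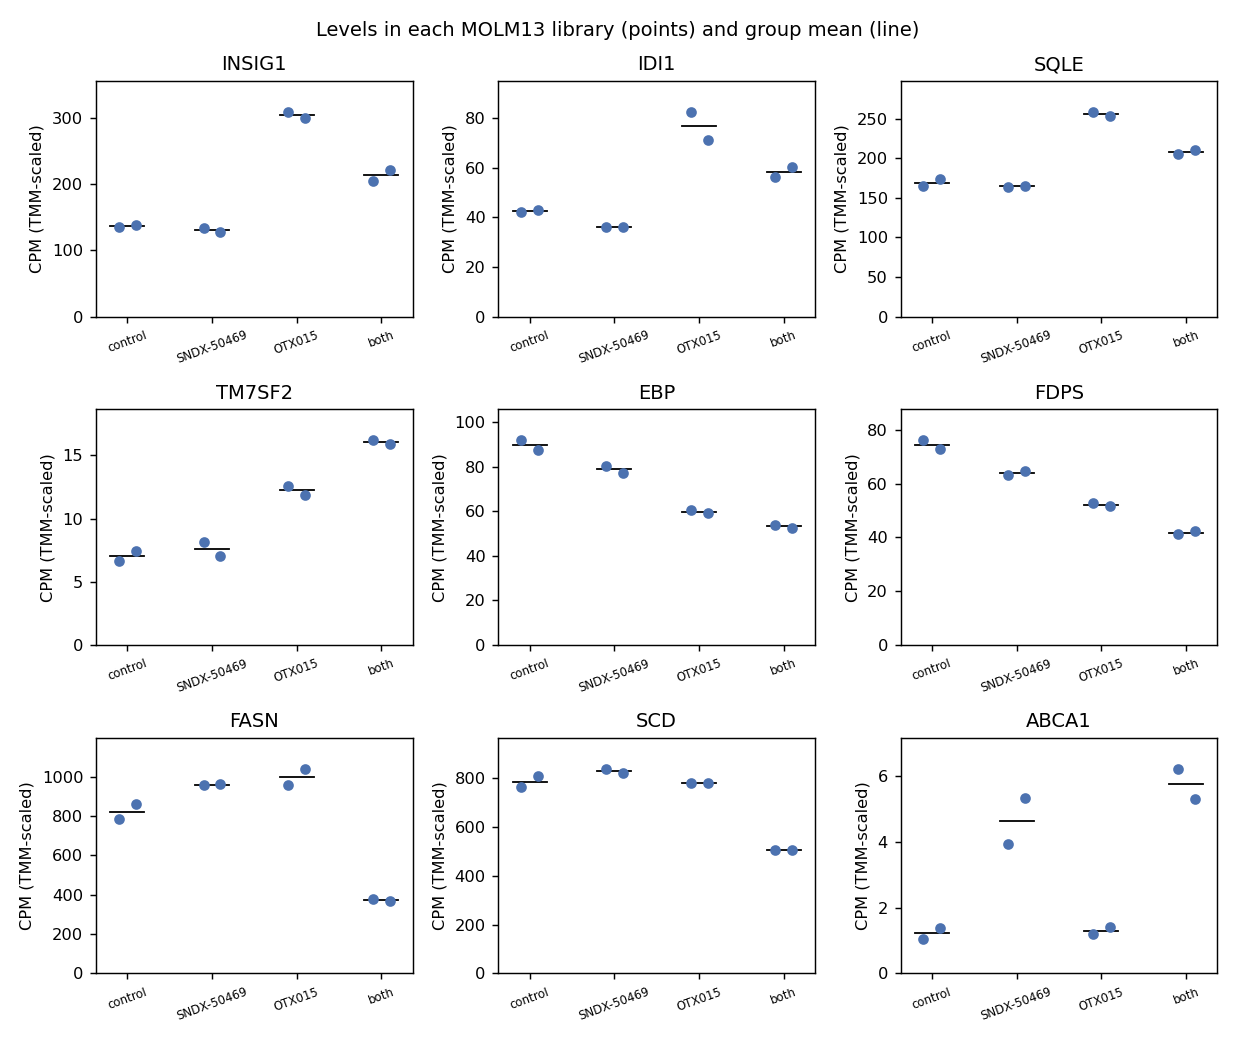
CPM (TMM-scaled, y axis from 0) of 9 sterol genes in each of the 8 MOLM13 libraries; points are libraries and lines are group means over n = 2. INSIG1 is highest with OTX015 alone at 309 and 300 CPM, FASN is lowest with both agents at 379 and 369 CPM, and ABCA1 is high in both groups that received SNDX-50469.

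The interaction term asked whether the effect of both agents departed from the sum of their single effects on the log2 scale. It was called for 7 of 30 members, 6 lower and 1 higher, against 12.7% and 11.5% of all genes tested. The largest departure was that of FASN, where single effects of 0.22 and 0.28 summed to 0.50 and the observed effect was -1.14, an interaction of -1.63 ± 0.06 (adjusted p = 3.26e-33). SCD followed with a sum of 0.07, an observed effect of -0.64 and an interaction of -0.70 ± 0.05. DHCR7 (-0.50 ± 0.07), INSIG1 (-0.44 ± 0.06), LSS (-0.41 ± 0.07) and NSDHL (-0.33 ± 0.10) also lay below the sum. HSD17B7, a sterol 3-ketoreductase, lay above it (0.54 ± 0.16, adjusted p = 0.00563, edgeR). For INSIG1 this was a smaller rise (0.64 against a sum of 1.08), and for NSDHL a larger fall (-0.68 against -0.35). The NSDHL call was lost without control replicate 1, SNDX-50469 replicate 2, OTX015 replicate 1 or replicate 1 of both agents (-0.32 to -0.27). HSD17B7 was at 10.8 and 11.7 CPM in controls, 9.86 and 10.1 with SNDX-50469, 9.32 and 9.35 with OTX015 and 12.3 and 11.8 with both, and a transcribed copy of it, HSD17B7P2, held 4.66% of the reads of the pair. For EBP, FDPS, FDFT1, PMVK and SREBF2 the interaction was between -0.10 and 0.04 and was not called.

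**Figure D3:**
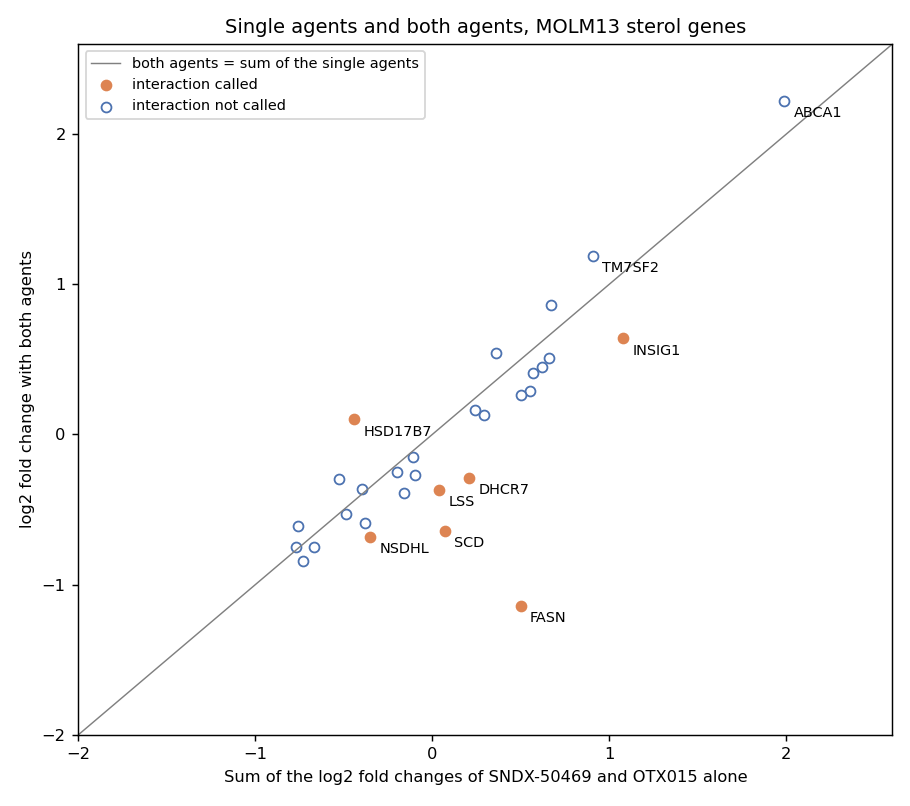
Sum of the log2 fold changes of each agent alone (x axis) against the log2 fold change with both (y axis) for 30 sterol genes in MOLM13; the line marks equality and filled points have a called interaction. FASN lies far below the line (0.50 against -1.14), while ABCA1 lies near it (1.99 against 2.22).

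Adding OTX015 to SNDX-50469 raised 7 members and lowered 9, against 27.9% and 29% of all genes tested. The changes were led by FASN (-1.36 ± 0.04), TM7SF2 (1.08 ± 0.11), INSIG2 (0.77 ± 0.13) and INSIG1 (0.72 ± 0.04), and ABCA1 was at 0.31 ± 0.17 (adjusted p = 0.11). Adding SNDX-50469 to OTX015 raised 4 and lowered 9, against 18.4% and 16.5%. Here the 25 negative estimates outnumbered the 5 positive ones, and the median log2 fold change over all genes tested was 0.01. FASN was at -1.41 ± 0.04, SCD at -0.62 ± 0.04, INSIG1 at -0.51 ± 0.04, LSS at -0.46 ± 0.05 and IDI1 at -0.40 ± 0.06. ABCA1 (2.14 ± 0.23), TM7SF2 (0.39 ± 0.11), HSD17B7 (0.37 ± 0.11) and MYLIP (0.35 ± 0.06) were higher. The IDI1 call was lost without OTX015 replicate 1 (-0.30), and that of MYLIP without OTX015 replicate 2 (0.30) or replicate 1 of both agents (0.32). These 2 contrasts share the libraries treated with both agents.

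Set directly against OTX015, SNDX-50469 gave higher levels of 2 members and lower levels of 9, against 22.5% and 20.1% of all genes tested. The agents differ in target and structure and were compared at 500 nM and 16 h, and all 30 differences were tested within the fit over 14360 genes. INSIG1 was lower with SNDX-50469 by 1.23 ± 0.04 on the log2 scale, at 133 and 127 CPM against 309 and 300. IDI1 (-1.09 ± 0.06), TM7SF2 (-0.69 ± 0.12), SQLE (-0.64 ± 0.04), SC5D (-0.57 ± 0.12), INSIG2 (-0.48 ± 0.14), MVD (-0.44 ± 0.06), NR1H3 (-0.44 ± 0.19) and STARD4 (-0.40 ± 0.11) were lower too. Without OTX015 replicate 1, SC5D (-0.31) and INSIG2 (-0.29) were no longer called, and NR1H3 lost its call without SNDX-50469 replicate 2 (-0.17) or OTX015 replicate 2 (-0.33). ABCA1 (1.83 ± 0.23) and EBP (0.40 ± 0.05) were higher with SNDX-50469. FASN (-0.06 ± 0.04) and SCD (0.09 ± 0.04) were not called.

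Neighboring genes of the pathway were counted in the same fits, in lists of 9 to 16 tested genes, and the counts are to be read against the shares of all genes called: 23.5% higher and 24.7% lower with OTX015, and 31.2% and 30.9% with both agents. With OTX015, 5 of 16 tested genes of uptake, lysosomal release, trafficking and storage were higher and 6 lower, among them NPC1, which exports cholesterol from lysosomes (1.21 ± 0.06), the sterol carrier STARD5 (2.35 ± 0.48), the esterifying enzyme SOAT1 (0.75 ± 0.06) and the scavenger receptor CD36 (-4.86 ± 0.35). With both agents 6 were higher and 5 lower, with NPC1 at 1.49 ± 0.06 and the HDL receptor SCARB1 at -1.38 ± 0.05. Of 13 fatty acid and other SREBP targets, 4 were higher and 2 lower with OTX015, and 5 higher and 4 lower with both, where ACACA, the acetyl-CoA carboxylase that feeds FASN, was at -1.04 ± 0.05 with an interaction of -1 ± 0.07, TMEM97 at -1.58 ± 0.06 and the phosphatidate phosphatase LPIN1 at 1.22 ± 0.08.

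Of 10 genes of SREBP processing and sterol-dependent degradation, 4 were higher and 1 lower with OTX015 and the same numbers were seen with both. Of 9 genes of the isoprenoid branch, 1 was higher and 3 lower with OTX015, and 2 higher and 4 lower with both, where PDSS1, which makes the side chain of coenzyme Q, was at -1.66 ± 0.09. Of 10 tested LXR targets and partners, 3 were higher and 1 lower with OTX015, and 5 higher and 1 lower with both, with SMPDL3A, a phosphodiesterase gene, at 1.57 ± 0.23 and RXRA, the partner receptor of LXR, at -0.69 ± 0.05. After SNDX-50469 alone, LPIN1 (0.35 ± 0.09) was called higher and the lipid droplet coat gene PLIN2 (-0.47 ± 0.07) lower.

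In MV4-11, 1000 nM SNDX-50469 lowered 9 of the 31 tested members and raised 1, against 9.34% and 11.4% of all 15486 genes tested. The replicates of this line varied more than those of the others (common coefficient of biological variation 13.2%, against 3.06% in MOLM13 and 3.15% in OCI-AML3), and the member count ran from 6 to 13 as each library was left out. DHCR7 was at 38.2 and 39.6 CPM in controls and at 15.5 and 17.2 CPM after SNDX-50469, without overlap (-1.25 ± 0.17, adjusted p = 6.18e-05). SQLE went from 114 and 103 to 56.1 and 71.3 CPM (-0.77 ± 0.16) and IDI1 from 74.2 and 71.4 to 38.6 and 47.4 CPM (-0.76 ± 0.16). The exporter ABCG1 rose from 2.12 and 2.41 to 6.09 and 6.38 CPM (1.45 ± 0.25, adjusted p = 0.000554). These 4 calls held on leaving out each of the 4 libraries.

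The other 6 calls in MV4-11 were lost in 1 or more of those refits. ACAT2 (-0.59 ± 0.16) lost it without control replicate 1, the library with 10.3% mitochondrial counts. MSMO1, a sterol 4-methyl oxidase (-0.57 ± 0.18), FDPS (-0.49 ± 0.16), LSS (-0.45 ± 0.15) and SCD (-0.50 ± 0.16) each lost it on leaving out 3 of the 4 libraries, both controls among them, and FASN (-0.51 ± 0.17) without control replicate 2 (-0.32) or SNDX-50469 replicate 1 (-0.42). Without control replicate 1 the count was 5 lower and 1 higher, and without control replicate 2 it was 4 lower and 2 higher. FASN was at 513 and 658 CPM in the controls and 377 and 445 after treatment. ABCA1 was at 20 and 30.3 CPM in controls and 22.6 and 43.2 after treatment, groups that overlapped (0.38 ± 0.25, adjusted p = 0.298). The 20 negative estimates outnumbered the 11 positive ones, and the median was -0.19 against 0 over all genes. Among neighboring genes, LRP1, a large lipoprotein receptor, was at 1.77 ± 0.23 and the lysosomal sterol carrier NPC2 at 0.79 ± 0.16, while the fatty acid desaturase FADS2 was at -0.62 ± 0.15. In the isoprenoid branch PGGT1B (-0.70 ± 0.17), NUS1 (-0.55 ± 0.18) and COQ2 (-0.46 ± 0.16) were called lower. The other listed genes of that branch were not called.

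In OCI-AML3, 500 nM SNDX-50469 raised 1 member and lowered 1 of 31, against 8.58% and 4.53% of all 16611 genes tested. ABCG1 was at 0.123, 0.281 and 0.29 CPM in the controls and 1.21, 1.14 and 1.39 CPM after treatment (2.39 ± 0.24, adjusted p = 5.48e-06), a rise from 6, 14 and 17 reads in the controls. IDI1 went from 124, 127 and 126 CPM to 89.4, 86.2 and 85.2 CPM (-0.53 ± 0.03, adjusted p = 1.34e-08). The treated libraries lay outside the range of the controls for both genes. Below the fold limit, SQLE and LSS were each at -0.31 ± 0.03 and FDPS at -0.24 ± 0.03, and TM7SF2 at 0.30 ± 0.05. ABCA1 was at 27.6, 34.1 and 32.4 CPM in controls and 34.6, 36.2 and 37.5 CPM after treatment (0.20 ± 0.06, adjusted p = 0.0204). Among neighboring genes SCARB1 was at -0.42 ± 0.03, LRP1 at 0.50 ± 0.09 and COQ2 at -0.35 ± 0.03.

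**Figure D4:**
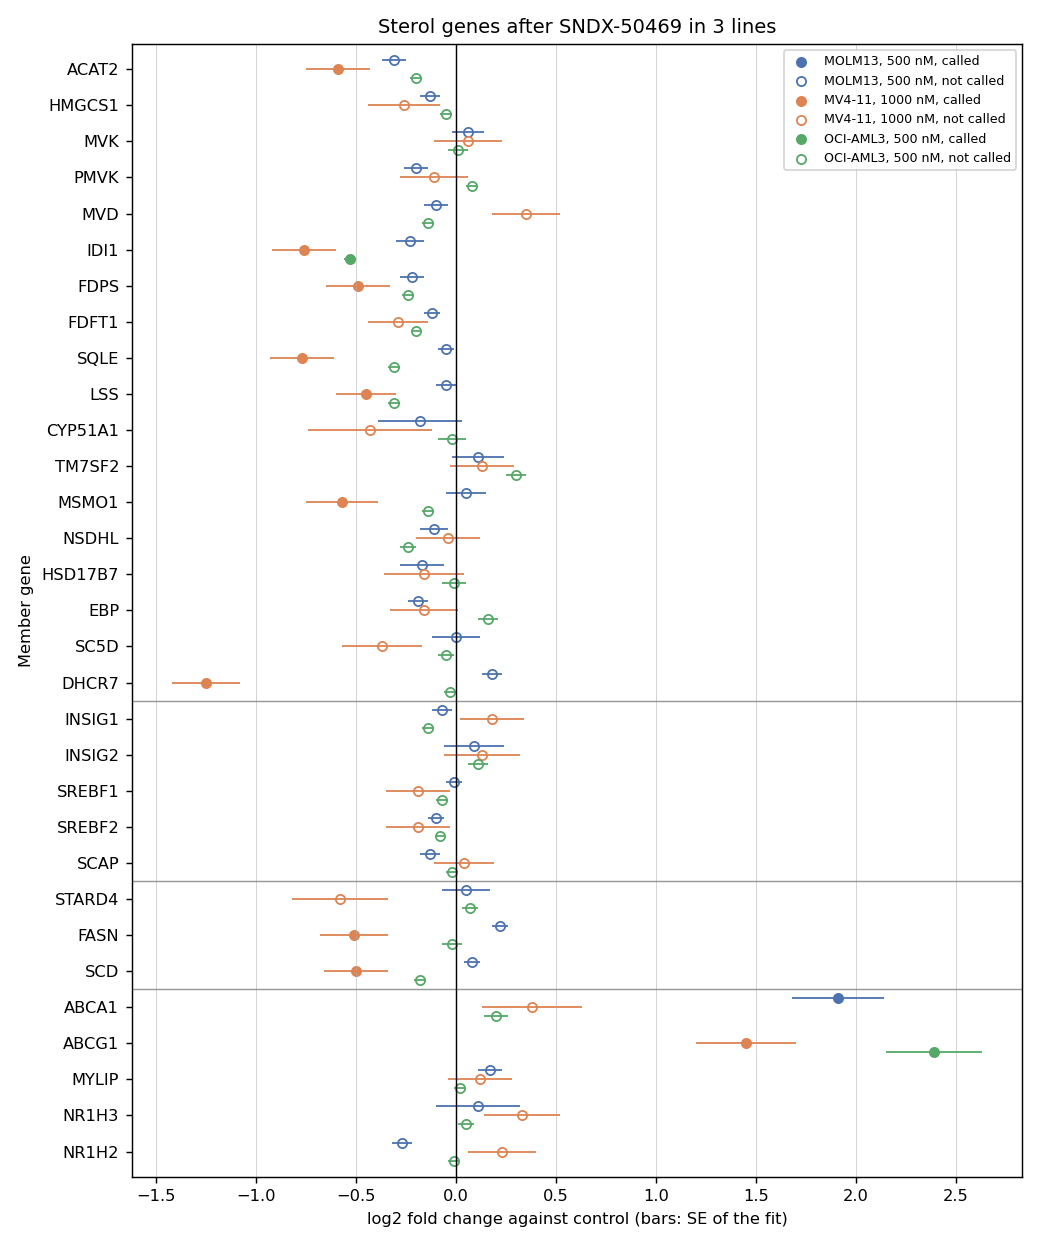
Log2 fold change after SNDX-50469 (x axis) of the 31 genes in MOLM13 (500 nM), MV4-11 (1000 nM) and OCI-AML3 (500 nM), with the SE of each fit as bars and filled points for called genes. ABCA1 stands out in MOLM13 at 1.91 and ABCG1, not tested in MOLM13, in MV4-11 (1.45) and OCI-AML3 (2.39).

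Across the 3 lines, 30 members were tested in each and ABCG1 in MV4-11 and OCI-AML3. IDI1 was called lower and ABCG1 higher in both MV4-11 and OCI-AML3, and doses and media differed for MV4-11. Between OCI-AML3 and MOLM13, at the same dose and time, the response itself was tested. It differed for 1 member, lower in OCI-AML3, and for none higher, against 1.49% and 2.6% of all 17597 genes tested. At an unadjusted p below 0.05, 3 members had a positive and 6 a negative difference, with no share of all genes at that limit beside them. DESeq2 called 1 lower and limma-voom none. The member called by edgeR was ABCA1, with a difference of -1.68 ± 0.46 (adjusted p = 0.0427, edgeR). That call was lost on leaving out any 1 of the MOLM13 libraries, OCI-AML3 control replicates 2 and 3 or SNDX-50469 replicates 1 and 2, 8 of the 10 libraries, with differences from -1.90 to -1.44 and adjusted p up to 0.25. ABCA1 rose from a level of 1.06 and 1.39 CPM in MOLM13, whereas OCI-AML3 controls stood at 27.6 to 34.1 CPM.

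Among untreated cells, ABCA1, ABCG1, NR1H3 and EBP differed between lines while HMGCS1, SQLE and LSS were not called between MOLM13 and OCI-AML3. In MOLM13 and MV4-11 the members with the highest levels per exon length were SCD (160 ± 7.28 CPM per kilobase in MOLM13, 83 ± 4.99 in MV4-11 and 100 ± 3.79 in OCI-AML3; mean ± SD, n = 2, 2 and 3), FDFT1 (113 ± 0.974, 71.9 ± 1.81 and 47.4 ± 0.601) and FASN (94 ± 6.6, 61.9 ± 9.86 and 121 ± 11.9). In OCI-AML3 the order was FASN, SCD, INSIG1 and FDFT1. ABCG1 was the lowest in all 3 lines. INSIG1 was at 39.9 ± 0.969, 29.6 ± 1.94 and 62.5 ± 2.17, and SREBF2 at 45.8 ± 0.439, 54.9 ± 5.18 and 41.1 ± 0.827.

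MOLM13 controls were higher than OCI-AML3 controls for 11 members and lower for 13, against 30.5% and 33.7% of all genes. EBP was at 93.4 and 97.5 CPM in MOLM13 and at 8.67 to 9.46 CPM in OCI-AML3 (3.39 ± 0.08), with MV4-11 between them at 37.1 and 42.4 CPM. FDFT1 (1.26 ± 0.05) and NR1H2 (1.19 ± 0.08) were also higher in MOLM13. ABCA1 (-4.49 ± 0.31), NR1H3 (-3.54 ± 0.13) and STARD4 (-1.75 ± 0.13) were lower in MOLM13. HMGCS1 (-0.11), SQLE (-0.05) and LSS (0.11) were not called.

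MV4-11 controls were higher than MOLM13 controls for 8 members and lower for 18, against 34.2% and 29.3% of all genes. ABCA1 was higher by 4.25 ± 0.34, TM7SF2 by 2.20 ± 0.10 and NR1H3 by 1.63 ± 0.16, and HMGCS1 (-1.44 ± 0.10), DHCR7 (-1.41 ± 0.06) and EBP (-1.27 ± 0.09) were lower. ABCG1 had no read in either MOLM13 control. With 3 counts per library as the floor (0.148 CPM), the mean of the controls was at least 15.1-fold higher in MV4-11 and 1.47-fold higher in OCI-AML3. The OCI-AML3 figure holds for the mean only, as its lowest control (0.123 CPM, scaled within the line) lay under that floor. Against OCI-AML3, MV4-11 was higher for 7 members and lower for 14, against 34.3% and 33.1%, led by ABCG1 (3.33 ± 0.28), EBP (2.12 ± 0.08) and TM7SF2 (1.70 ± 0.08) above and by STARD4 (-1.92 ± 0.13), NR1H3 (-1.90 ± 0.10) and HMGCS1 (-1.55 ± 0.10) below. ABCA1 did not pass the test between these lines (-0.24 ± 0.18).

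**Figure D5:**
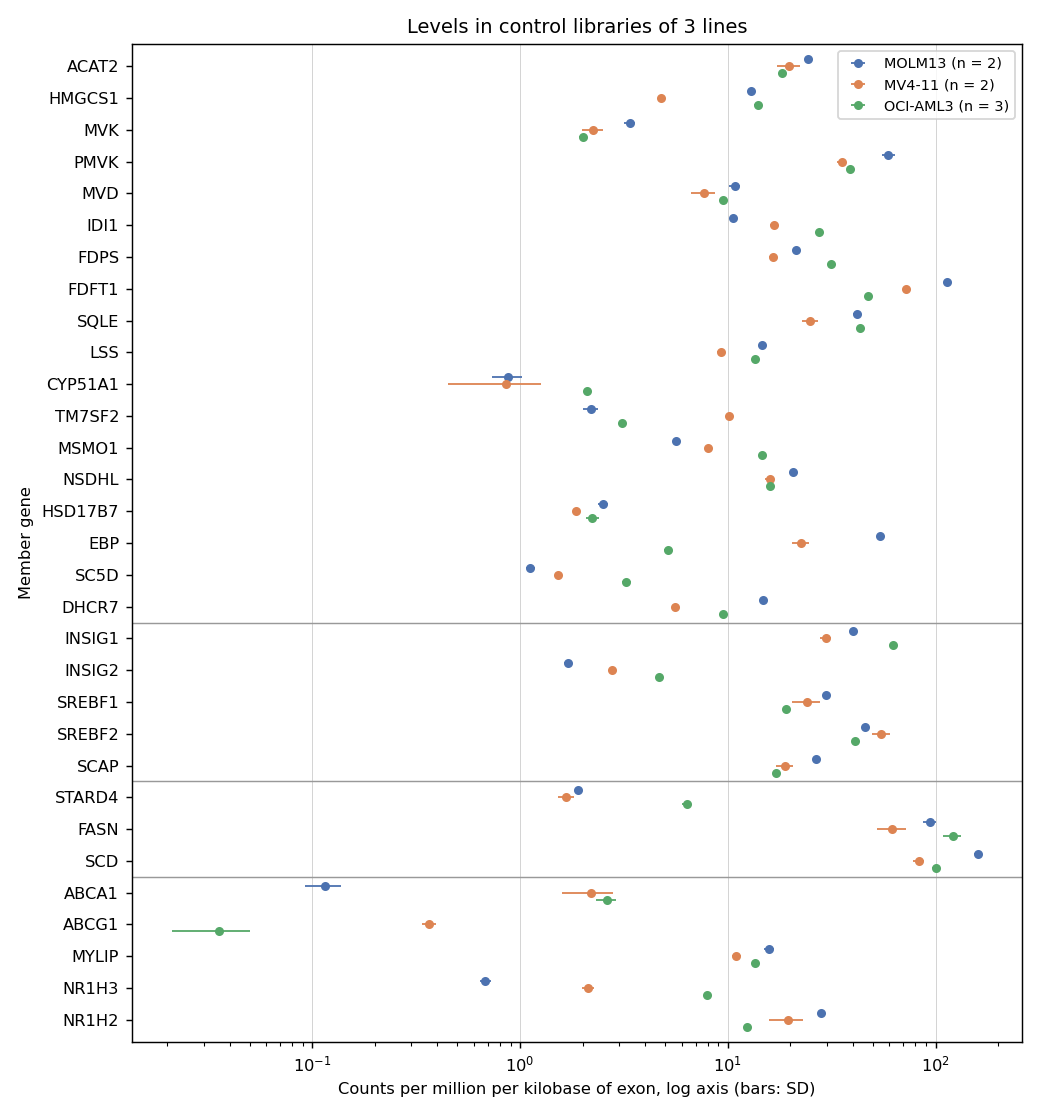
Mean level of the 31 genes in the control libraries of MOLM13 (n = 2), MV4-11 (n = 2) and OCI-AML3 (n = 3), in CPM per kilobase of exon on a log axis, with the SD as bars; ABCG1 had no reads in MOLM13 and has no point there. EBP stands at 54 in MOLM13 and 5.16 in OCI-AML3, and ABCA1 at 0.115 in MOLM13 and 2.61 in OCI-AML3.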

How the data were processed

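The authors deposited raw counts per gene for 18 bulk RNA-Seq libraries. Their processing notes name STAR and hg38, whereas the study's methods name other alignment and assembly tools, so the aligner is uncertain; for the counter, the use of strand and the gene annotation, the value was not given in the sources used here. Symbols were matched for 40894 of 58037 rows.

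Counts were tested with edgeR 4.0.16 in R 4.3.3 (TMM factors, filterByExpr, quasi-likelihood F test), with MOLM13, MV4-11 and OCI-AML3 fitted apart and all 18 libraries in 1 fit for comparisons between lines. Calls required an adjusted p (Benjamini-Hochberg, over all genes tested) under 0.05 and a log2 fold change of at least 0.32 in size. CPM values were scaled by TMM factors within each line, and for comparisons between lines over all 18. Exon lengths and overlaps came from a GENCODE annotation of another build, from which no coordinates are given, and promoters from RefSeq (GRCh38.p14). Alternatives were DESeq2 1.42.0, limma-voom 3.58.1, other filters and scalings, a fit with all libraries, a replicate block and leaving out each library; the tests were checked on simulated data.

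The study calls MOLM13 and OCI-AML3 samples biologic replicates, which is not stated for MV4-11, so p-values there measure the spread between libraries whose separation is not stated. Spread between replicates was also set against counting noise, as a chi-square per degree of freedom. It was 2.01 to 2.61 in MOLM13, 1.46 to 7.03 in OCI-AML3 and 43.9 and 23.9 in MV4-11. The small p-values in MOLM13 thus rest on 2 libraries per group that lay close together. Groups without overlap are described for single called genes only, and the share of all genes with such a separation was not counted. Members and lists were chosen with earlier results of these data known. Every member is named; of 5 other pathway lists, only the 3 called rises and 3 called falls with the largest changes per list and comparison could be named, with marker and treatment checks and overlapping or copied neighbors of members; some genes of these lists are counted but not reported here by name. The floor of 3 counts covers counting error only, whereas each SE comes from the fit and includes the spread between replicates.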

Additional observations from a re-analysis of the deposited data

Results flagged for a closer look

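Responses to SNDX-50469 at 500 nM that differed between OCI-AML3 and MOLM13 were seen for 4 genes of the sterol and lipid lists reported here, each by the test of the difference itself. Of all 17597 genes tested in this contrast, 2.6% were called higher and 1.49% lower. The 4 genes are named because they were called, so their number is not a result about the lists. ABCA1 differed by -1.68 ± 0.46 on the log2 scale (adjusted p = 0.0427, edgeR), at 1.91 in MOLM13 and 0.20 in OCI-AML3. Its call was lost on leaving out 8 of the 10 libraries (adjusted p up to 0.25), with limma-voom and with no scaling factors. ELOVL6, a fatty acid elongase, differed by 2.12 ± 0.53, and it had 1 to 10 reads per OCI-AML3 library against 421 to 526 in MOLM13 control and SNDX-50469 libraries; the call was lost without OCI-AML3 control replicate 2 or 3 or SNDX-50469 replicate 2 (1.80 to 2). PCYT2, of phosphatidylethanolamine synthesis, differed by 0.42 ± 0.08, at -0.19 in MOLM13 and 0.20 in OCI-AML3. PLIN2 differed by 0.51 ± 0.09, at -0.47 in MOLM13 and 0.02 in OCI-AML3.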

How the results depend on the processing

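The member count after SNDX-50469 in MOLM13 was 1 as reported, 2 with DESeq2, with no filter on low counts and with all 18 libraries in 1 fit, and 13 with no fold limit. With no fold limit the counts were 22 for OTX015, 20 for both agents against OTX015, 21 for SNDX-50469 against OTX015 and 17 in OCI-AML3, in place of 14, 13, 11 and 2. The share of all genes called with no fold limit is not given here. Counts under that rule thus cannot be read as a result about the members. In MV4-11 the count was 5 with no scaling factors in place of 10; the cause was not tested. The count for the response of OCI-AML3 against MOLM13, 1 as reported, was 0 with limma-voom and with no scaling factors, and 2 with the replicate block and with the libraries of the 2 lines alone. Leaving out each library gave 1 to 2 members for SNDX-50469 in MOLM13, 6 to 13 in MV4-11, 2 to 4 in OCI-AML3 and 0 to 1 for that response. Deviations of same-numbered libraries from their group means had correlations of -0.04 to 0.04 in MOLM13, 0.1 in MV4-11 and 0 to 0.03 in OCI-AML3. In groups of 2 libraries these deviations mirror each other, so the correlations cannot decide whether the numbers pair samples. The replicate block left 14 members for OTX015, 20 for both agents and 11 in MV4-11. It changed no count other than that of the response by over 1.5 times. CYP51A1, at 0.03 for MV4-11 against MOLM13 controls, ran from -0.66 (without MV4-11 control replicate 2) to 0.37 (without replicate 1). With no scaling factors the median of all genes moved to 0.11 for both agents in MOLM13, -0.24 for MOLM13 against OCI-AML3 controls and 0.21 for MV4-11 against MOLM13 controls (0.16 with upper-quartile factors). About 3 counts per library bound what can be seen of ABCG1 in MOLM13.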
